A study of Mus musculus with 25 samples.

Results

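The cortex of 5xFAD mice given the high dose of the compound P was compared with the cortex of wild-type mice given vehicle, to see which parts of the 5xFAD expression state were still present under the high dose. RNA sequencing had been done on 5 high P 5xFAD mice and 5 vehicle wild-type mice, which are 10 of the 25 mice of the study. The genes were those with at least 0.5 FPKM (fragments scaled to gene length and to sequencing depth) in at least 5 of these 10 libraries, which were 15009 of the 54532 genes in the deposited table. In the study, brain cortex of 5 mice was collected for each of 5 groups. The high P 5xFAD mice (labels AD and High P) were 5xFAD transgenic mice given P at its high dose, and the mice they were set against (labels WT and Veh) were wild-type mice given vehicle. Vehicle 5xFAD mice (labels AD and Veh), which carried the same transgenes and had no P, were used beside them, and all 25 libraries gave the estimate of spread. The remaining groups, which were used for that estimate, were 5xFAD mice given P at its low dose and wild-type mice given P at its high dose. P is described as a natural product derivative, and the sources used here give neither its identity nor the dose, the duration of treatment or the age of the mice.

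5xFAD mice carry human transgenes with familial Alzheimer mutations, driven by mouse Thy1 regulatory sequences, and they deposit amyloid in the cortex. The transgenes are therefore expressed mainly in neurons, and the model has amyloid pathology without the tangles of the human disease. Around amyloid plaques, microglia take on a state that depends on the lipid-sensing receptor TREM2 and its signalling adaptor TYROBP: they raise phagocytic receptors, lysosomal proteases, antigen presentation genes and lipid-handling genes. Nearby astrocytes become reactive and raise the intermediate filament protein GFAP, and type I interferon signalling induces a further set of genes through factors that include STAT2 and IRF9. In bulk cortex, more cells of a type and more RNA per cell cannot be told apart, and this applies to each microglial and astrocyte value below.

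Promoter windows are shown for 5 genes that were higher in high P 5xFAD cortex and whose window holds the element looked for, since the groups of genes that rose together include those of microglia, interferon response and lysosomes, for which elements of known regulators can be looked up. They come from RefSeq (build GRCm38.p6) and run from 250 bases before to 50 bases after a transcription start, 5′ to 3′ on the gene's strand. Of the 15009 tested genes, 10612 matched such a window by symbol, chromosome and strand, and the window nearest to the deposited 5′ end of the gene was used. Capitals mark a match on either strand, and matches that overlap run together. For Clec7a (chr6:129472730-129473029, minus strand) and Trem2 (chr17:48346151-48346450, plus strand) the capitals mark GAGGAA, the core bound by PU.1, the factor that specifies myeloid cells. For Ifit3 (chr19:34583279-34583578, plus strand) and Bst2 (chr8:71537423-71537722, minus strand) they mark GAAA, 2 bases of any kind and GAAA, the interferon-stimulated response element. For Ctsd (chr7:142387778-142388077, minus strand) they mark CACGTGAC, the core of the element bound by TFEB, a regulator of lysosomal genes.
Clec7a: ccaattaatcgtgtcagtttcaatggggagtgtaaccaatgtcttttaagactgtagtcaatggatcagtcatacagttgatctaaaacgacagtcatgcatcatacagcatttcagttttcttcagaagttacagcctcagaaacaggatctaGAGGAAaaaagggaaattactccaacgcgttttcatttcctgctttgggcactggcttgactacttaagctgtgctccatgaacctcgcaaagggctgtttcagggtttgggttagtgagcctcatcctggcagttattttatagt
Trem2: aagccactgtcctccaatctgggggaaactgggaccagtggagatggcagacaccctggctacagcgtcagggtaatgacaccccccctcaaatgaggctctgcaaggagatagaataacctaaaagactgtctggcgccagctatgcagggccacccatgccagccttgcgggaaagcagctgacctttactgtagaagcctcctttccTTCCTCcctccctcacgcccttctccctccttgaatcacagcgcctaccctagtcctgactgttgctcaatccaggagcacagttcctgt
Ifit3: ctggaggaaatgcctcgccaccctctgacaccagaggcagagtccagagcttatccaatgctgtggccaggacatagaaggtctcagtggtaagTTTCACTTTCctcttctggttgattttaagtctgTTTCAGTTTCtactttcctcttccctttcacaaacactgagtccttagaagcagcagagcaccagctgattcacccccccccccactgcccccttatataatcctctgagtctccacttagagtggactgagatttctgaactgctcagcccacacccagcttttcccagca
Bst2: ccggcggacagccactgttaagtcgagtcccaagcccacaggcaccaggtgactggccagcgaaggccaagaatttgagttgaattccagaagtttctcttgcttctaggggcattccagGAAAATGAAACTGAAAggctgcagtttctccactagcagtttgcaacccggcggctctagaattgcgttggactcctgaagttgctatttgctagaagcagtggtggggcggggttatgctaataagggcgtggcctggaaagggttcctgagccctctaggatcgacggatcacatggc
Ctsd: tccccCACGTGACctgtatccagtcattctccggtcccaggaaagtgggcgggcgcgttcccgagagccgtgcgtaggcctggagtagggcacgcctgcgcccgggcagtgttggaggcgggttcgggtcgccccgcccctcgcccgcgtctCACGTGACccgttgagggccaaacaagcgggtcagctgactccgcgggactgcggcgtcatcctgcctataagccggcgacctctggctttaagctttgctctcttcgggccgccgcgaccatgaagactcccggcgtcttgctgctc
The 5 were taken from 12 windows looked at, of which 6 held no match: the PU.1 core was not in the windows of Cst7 and Itgax, the core CACGTGAC was not in that of Gpnmb, the sterol regulatory element TCACNCCAC (1.08% of all windows) was not in those of Mvd and Mvk, and the AP-1 site TGACTCA (3.19% of all windows) was not in that of Gfap. The window of Ifit1 also held the interferon element and is not printed. The PU.1 core was found in 40.7% of 27 windows of plaque-associated microglia genes, 37.9% of 29 windows of lysosome and autophagy genes, 37.2% of the 328 windows of all genes called higher and 26.1% of all 10612 windows. The interferon-stimulated response element was found in 63.2% of 19 windows of interferon response genes and in 2.75% of all windows. The core CACGTGAC was found in 17.2% of 29 windows of lysosome and autophagy genes, 16.7% of 18 windows of sterol genes and 4.16% of all windows. These shares describe letters in fixed windows and were not tested, and a match is not a binding site. The RefSeq start used for Ctsd lies 211 bases from the deposited 5′ end of the gene, and those of the other 4 lie within 16 bases of it.

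Reads assigned to genes, recovered from the FPKM values and gene lengths, numbered 15518358 to 16961077 per library in high P 5xFAD mice and 16484922 to 17282435 in vehicle wild-type mice. Xist and Y-linked transcripts showed 3 males and 2 females in each group. Thy1, whose regulatory sequences drive the transgenes, checks the genotype labels. Its level was 513, 493, 437, 429.5 and 436 FPKM in the high P 5xFAD mice, 563, 397, 487, 479 and 367 FPKM in the vehicle 5xFAD mice and 175, 156, 165, 137 and 144 FPKM in the vehicle wild-type mice. Every library labelled 5xFAD lay above every wild-type library, so Thy1 went with the labels (log2 fold change of high P 5xFAD over vehicle wild type 1.57, SE 0.13, limma adjusted p = 3.22e-08). Mouse App averaged 146 ± 9.65 FPKM in high P 5xFAD mice and 145 ± 5.798 FPKM in vehicle wild-type mice (SD, n = 5 each), and the human transgenes were not analysed here.

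High P 5xFAD cortex held more RNA of many inflammatory genes than vehicle wild-type cortex. Genes of plaque-associated microglia, complement, antigen presentation, interferon response, Fc receptors, reactive astrocytes and lysosomal proteases were higher in the high P 5xFAD cortex than in vehicle wild-type cortex, led by the protease inhibitor gene Cst7, the integrin gene Itgax and the lectin receptor gene Clec7a. Fewer genes were called lower, and those with the largest falls included neuronal, mitochondrial and striatal genes. In a linear model on log2(FPKM + 0.5) fitted to all 25 libraries with limma, 577 genes passed a Benjamini-Hochberg adjusted p of 0.05. Of the tested genes, 441 were higher (2.94%) and 136 were lower (0.906%) in high P 5xFAD mice. Among the higher genes 130 differed by 2-fold or more, and among the lower genes 17 did. The groups did not overlap in 449 of the 577 genes, and in 6.92% of all tested genes. Of the higher genes 419 were protein-coding, as were 114 of the lower ones. The lists of genes described here hold 629 of the tested genes, with 126 of the higher and 6 of the lower genes among them. Before adjustment the split was near even: a limma p under 0.05 was reached by 1679 higher and 1791 lower genes. Of all tested genes, 50.3% had a log2 fold change below 0.

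**Figure D1:**
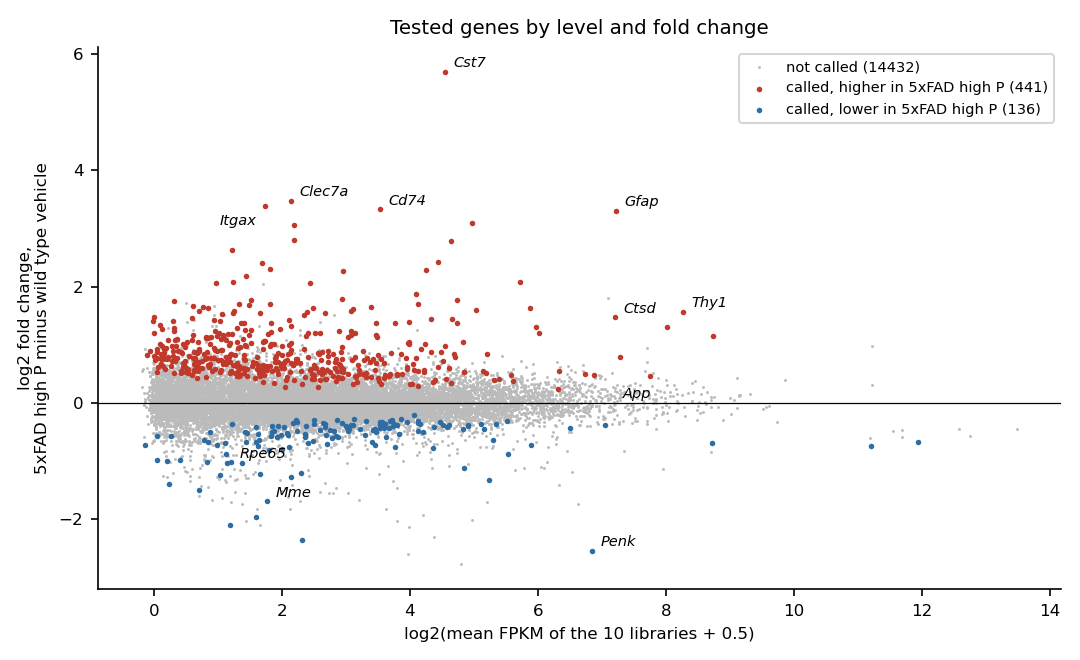
Each point is 1 of the 15009 tested genes, with the log2 of its mean FPKM over the 10 libraries plus 0.5 on the horizontal axis and its log2 fold change, high P 5xFAD minus vehicle wild type, on the vertical axis. Coloured points passed an adjusted p of 0.05 (441 higher and 136 lower), and the higher genes reach further from 0 than the lower ones, with Cst7 at 5.70.

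The size of the lower set depended on which libraries were in the fit. It was 126 or more without high P 5xFAD replicate 3 or 5 or without wild-type replicate 3, but 38, 30 and 62 without high P 5xFAD replicates 1, 2 and 4, and 81, 31 and 33 without wild-type replicates 2, 4 and 5. Without wild-type replicate 1 the comparison gave 731 higher and 677 lower genes. The total was 361, 290 and 364 without high P 5xFAD replicates 1, 2 and 4, 1408 without wild-type replicate 1, and 322 and 296 without wild-type replicates 4 and 5. A fit to the recovered reads with limma's voom, added after the data had been seen, gave 529 higher and 67 lower genes. Fold changes also went with base composition: the median GC content was 53.5% for higher, 44.2% for lower and 49.7% for all tested genes. The Spearman correlation of fold change with GC content was 0.54 for this comparison. It was 0.40 for high P over vehicle 5xFAD and 0.36 for vehicle 5xFAD over wild type. After a correction for GC content 376 genes were higher and 125 lower, and 393 of the 577 main calls were among them.

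Genes of plaque-associated microglia had the highest median fold change among the lists with at least 5 tested members. Of 32 tested members, 25 were higher in high P 5xFAD mice and none was lower, and their median log2 fold change was 1.27, against -0.0021 for all tested genes. Cst7, which encodes cystatin F, an inhibitor of lysosomal proteases, was at 33.0001, 57.03, 34.2, 64.6 and 39.4 FPKM in the high P 5xFAD mice and at 0, 0.857, 0.419, 0.3 and 0.43 FPKM in the vehicle wild-type mice. The lowest high P 5xFAD library was far above the highest wild-type library, which itself held under 1 FPKM (log2 fold change 5.70, SE 0.26, adjusted p = 3.65e-13). Itgax, which encodes the integrin CD11c, was at 3.33, 6.11, 5.29, 8.09 and 5.18 FPKM in high P 5xFAD mice and at 0.05, 0.0754, 0.11, 0.0123 and 0.0757 FPKM in wild-type mice, again with no overlap (log2 fold change 3.39, SE 0.21, adjusted p = 1.99e-10). Clec7a, the gene of the pattern receptor Dectin-1, was at 4.06, 9.72, 6.51, 8.96 and 8.93 FPKM in high P 5xFAD mice and at 0.137, 0.709, 0.067, 0 and 0.276 FPKM in wild-type mice. All 5 high P 5xFAD libraries exceeded all 5 wild-type libraries for Clec7a as well (log2 fold change 3.48, SE 0.24, adjusted p = 7.75e-10).

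The receptor and adaptor of this state were both higher. Tyrobp, whose product carries the signal of TREM2, was at 36.2, 36.95, 35.7, 39.3 and 31.8 FPKM in high P 5xFAD mice and at 8.28, 6.42, 7.16, 6.83 and 3.73 FPKM in wild-type mice, so that the high P mice sat close together and apart from wild type (log2 fold change 2.42, SE 0.21, adjusted p = 4.12e-08). Trem2 was at 9.58, 15.4, 12.2, 14.5 and 10.2 FPKM in high P 5xFAD mice and at 2.4997, 2.903, 1.59, 2.24 and 1.64 FPKM in wild-type mice, also without overlap (log2 fold change 2.27, adjusted p = 3.09e-09). Gpnmb, a membrane glycoprotein gene of lipid-laden macrophages, varied more among the high P 5xFAD mice, at 1.56, 4.77, 2.31, 12.4 and 4.302 FPKM, and was at 0.396, 0.213, 0.67, 0.318 and 0.261 FPKM in wild-type mice. Replicate 4 held the most Gpnmb and replicate 1 the least, and even the least exceeded wild type (log2 fold change 2.40, adjusted p = 0.000396). The lysozyme gene Lyz2 averaged 31.1 ± 5.26 FPKM in high P 5xFAD mice and 5.995 ± 1.02 FPKM in wild-type mice (SD, n = 5 each). The chemokine gene Ccl6 averaged 5.36 ± 0.967 FPKM in high P 5xFAD mice and 0.686 ± 0.119 FPKM in wild-type mice (SD, n = 5 each; log2 fold change 2.30).

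The 7 members that did not pass were Spp1, Cd33, Lpl, Fth1, Ank, Timp2 and Hif1a. Spp1, the osteopontin gene, had a log2 fold change of 1.25 but was at 8.38, 17.4, 12.1, 64.1 and 19.998 FPKM in high P 5xFAD mice and at 4.01, 21.5, 5.08, 7.03 and 7.83 FPKM in wild-type mice, with a spread too wide for a call (adjusted p = 0.125). Lpl, which encodes lipoprotein lipase, averaged 5.29 ± 0.545 FPKM in high P 5xFAD mice and 4.28 ± 1.75 FPKM in wild-type mice (SD, n = 5 each; adjusted p = 0.321). Leaving out each of the 10 libraries in turn gave 24 to 26 members called.

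**Figure D2:**
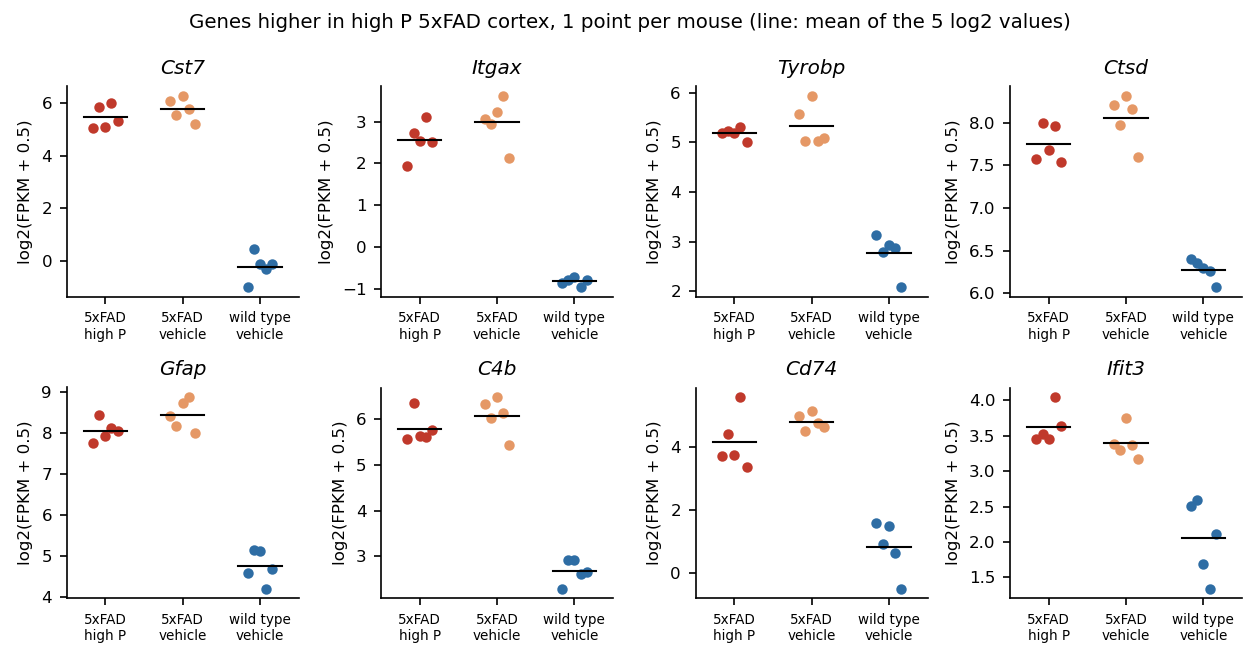
Each panel plots log2(FPKM + 0.5) of 1 gene, with 1 point per mouse and a line at the mean of the 5 log2 values, for high P 5xFAD, vehicle 5xFAD and vehicle wild-type mice. In all 8 panels the 5 high P 5xFAD mice lie above the 5 wild-type mice, and the points of high P and vehicle 5xFAD mice overlap.

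Genes of homeostatic microglia were also higher or not called, and none was lower. Of 16 tested members 7 were higher, with a median log2 fold change of 0.51. Fcrls, an Fc receptor-like gene of microglia, was at 19.5, 24.02, 20.8, 23.6 and 23.8 FPKM in high P 5xFAD mice and at 8.49, 8.38, 10.2, 8.01 and 6.15 FPKM in wild-type mice, with no overlap (log2 fold change 1.40, SE 0.14, adjusted p = 2.72e-07). Olfml3 averaged 5.25 ± 1.09 and 2.42 ± 0.679 FPKM in high P 5xFAD and wild-type mice (SD, n = 5 each; log2 fold change 0.99, adjusted p = 0.000598). The fractalkine receptor gene Cx3cr1 and the receptor gene Csf1r, on whose signal microglia depend, had log2 fold changes of 0.93 and 0.84 (adjusted p = 6.77e-05 and 0.000171). P2ry12, the ADP receptor gene used as a marker of the resting state, averaged 19.04 ± 2.64 FPKM in high P 5xFAD mice and 16.5 ± 2.01 FPKM in wild-type mice (SD, n = 5 each) and was not called (adjusted p = 0.47), nor was Tmem119 (log2 fold change 0.37, adjusted p = 0.22).

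In the complement list, 7 of 13 tested members were higher and none was lower, with a median log2 fold change of 1.18. C4b, whose product is cleaved in the classical pathway, was at 46.8, 80.8, 48.9, 48.3 and 53.7 FPKM in high P 5xFAD mice and at 4.41, 7.06, 7.05, 5.62 and 5.81 FPKM in wild-type mice. Replicate 2 stood highest among the high P mice, and the lowest of them exceeded each wild-type value several times over (log2 fold change 3.10, SE 0.22, adjusted p = 1.29e-09). C4b shares sequence with its neighbour C4a, so that reads could be split between them. C1qa, which encodes a chain of the initiating C1q molecule, was at 78.1, 113, 82.1, 87.6 and 62.7 FPKM in high P 5xFAD mice and at 29.95, 23.8, 14.9, 17.4 and 14.5 FPKM in wild-type mice, and the groups were apart (log2 fold change 2.08, adjusted p = 2.87e-06). C1qc and C1qb, the other two chains, had log2 fold changes of 1.77 and 1.62 (adjusted p = 4.13e-06 and 4.26e-06). The receptor gene C3ar1, the integrin subunit gene Itgb2 and the inhibitor gene Serping1 were called too, while the regulators Cd55 and Cd59a were not (log2 fold changes -0.22 and -0.40, adjusted p = 0.528 and 0.421).

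Antigen presentation genes were higher in 12 of 17 tested members, none was lower, and the list median was 0.77 on the log2 scale. Cd74, whose product chaperones MHC class II molecules, was at 12.7, 20.6, 12.9, 47.3 and 9.92 FPKM in high P 5xFAD mice and at 2.51, 1.41, 2.2995, 1.05 and 0.215 FPKM in wild-type mice. Among the high P mice replicate 4 held far more than the other 4, all of which were still above wild type (log2 fold change 3.33, SE 0.38, adjusted p = 3.1e-06). The class II chain gene H2-Aa was at 1.83, 3.76, 2.29, 10.4 and 2.04 FPKM in high P 5xFAD mice and at 0.544, 0.258, 0.881, 0 and 0.226 FPKM in wild-type mice. Its partner chain gene H2-Ab1 was at 1.94, 2.63, 2.55, 8.24 and 1.45 FPKM in high P 5xFAD mice and at 0.843, 0.184, 0.324, 0.217 and 0.037 FPKM in wild-type mice. The same replicate stood out for both chains (log2 fold changes 2.18 and 2.08, adjusted p = 0.000737 and 0.0005), and without it all 3 class II genes remained called. Class I genes, which present peptides from inside the cell, were higher by 1.37 for H2-D1 and 1.05 for H2-K1 on the log2 scale (adjusted p = 0.000166 and 0.000171), although class I genes resemble each other and can share reads. With the libraries that differed most in other tissue left out, in the 2 ways given below, or with striatal marker level in the model, 7 of the 17 were called. The list medians in these fits were 0.70, 0.81 and 0.72.

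Interferon response genes were higher in 14 of 25 tested members and lower in none, with a median log2 fold change of 0.71. Bst2, the gene of the antiviral membrane tether tetherin, was at 8.96, 8.32, 6.14, 9.24 and 6.94 FPKM in high P 5xFAD mice and at 3.39, 3.21, 1.89, 1.83 and 1.21 FPKM in wild-type mice, without overlap (log2 fold change 1.64, SE 0.27, adjusted p = 0.000471). Ifit3, whose product restrains viral RNA, was at 10.5, 11.1, 10.5, 15.999 and 11.97 FPKM in high P 5xFAD mice and at 5.19, 5.53, 2.74, 2.03 and 3.82 FPKM in wild-type mice. Its high P values lay close together except for a higher replicate 4 (log2 fold change 1.58, SE 0.24, adjusted p = 0.000187). Ifit1 averaged 3.36 ± 0.82 FPKM in high P 5xFAD mice and 1.22 ± 0.362 FPKM in wild-type mice (SD, n = 5 each; adjusted p = 0.00204). Among the factors that carry the signal, Irf9 was called (log2 fold change 0.59, adjusted p = 0.0133), and Stat2 was not (log2 fold change 0.21, adjusted p = 0.278). The windows of Ifit3 and Bst2 shown above hold the response element. Without the 2 high P libraries that were high in Ttr, 8 of the 25 were called.

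Cytokine, chemokine and innate sensor genes were higher in 8 of 13 tested members, none was lower, and the list median was 0.81. Ccl3, a chemokine gene of activated microglia, was at 6.66, 8.52, 10.1, 6.88 and 5.91 FPKM in high P 5xFAD mice and at 0.313, 0.394, 0.616, 0.463 and 0.554 FPKM in wild-type mice, and no mouse of either group came near the other (log2 fold change 3.05, SE 0.23, adjusted p = 3.76e-09). Cd14, a co-receptor for bacterial lipopolysaccharide, averaged 8.202 ± 1.95 FPKM in high P 5xFAD mice and 1.66 ± 0.644 FPKM in wild-type mice (SD, n = 5 each; log2 fold change 2.05, adjusted p = 5.71e-07). The Toll-like receptor gene Tlr2 was at 2.002, 3.11, 1.78, 2.34 and 1.94 FPKM in high P 5xFAD mice and at 0.757, 0.741, 0.645, 0.863 and 0.583 FPKM in wild-type mice, with no overlap (log2 fold change 1.15, adjusted p = 3.88e-06). With striatal marker level in the model, 5 of the 13 were called.

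Fc receptors and immune signalling genes were higher in 15 of 18 tested members, none was lower, and the list median was 0.97. Cd180, a Toll-like receptor homologue, averaged 3.38 ± 0.971 FPKM in high P 5xFAD mice and 0.672 ± 0.227 FPKM in wild-type mice (SD, n = 5 each; log2 fold change 1.71, adjusted p = 1.13e-06). Its partner Ly86 had a log2 fold change of 1.43 (adjusted p = 1.76e-06). Fcgr2b, the inhibitory receptor for IgG, was at 2.14, 2.44, 2.803, 2.99 and 2.56 FPKM in high P 5xFAD mice and at 0.757, 0.563, 0.753, 0.419 and 0.408 FPKM in wild-type mice (log2 fold change 1.52, SE 0.14, adjusted p = 1.1e-07). The activating receptor gene Fcgr3 was at 10.1, 11.9, 11.6, 11.5 and 10.8 FPKM in high P 5xFAD mice and at 5.01, 4.73, 4.99, 4.702 and 4.02 FPKM in wild-type mice. Both receptors were apart between the groups, with little spread within either (Fcgr3 log2 fold change 1.17, SE 0.11, adjusted p = 6.83e-08). The kinase genes Lyn and Syk, which act below these receptors, were not called (adjusted p = 0.0624 and 0.299).

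Reactive astrocyte genes were higher in 10 of 16 tested members, none was lower, and the list median was 0.92. Gfap was at 215, 348, 241, 278 and 262 FPKM in high P 5xFAD mice and at 23.5, 34.8, 34.2, 17.9 and 25.3 FPKM in wild-type mice, so the lowest high P mouse exceeded the highest wild-type mouse by a wide margin (log2 fold change 3.31, SE 0.21, adjusted p = 2.51e-10). Serpina3n, a secreted protease inhibitor gene, was at 27.2, 65.1, 35.5, 38.6 and 49.3 FPKM in high P 5xFAD mice and at 5.52, 5.09, 6.57, 4.298 and 6.87 FPKM in wild-type mice. Its values spread more within the high P group than those of Gfap and stayed apart from wild type (log2 fold change 2.78, SE 0.26, adjusted p = 1.5e-07). The asparaginase gene Aspg averaged 2.303 ± 0.55 FPKM in high P 5xFAD mice and 0.534 ± 0.0992 FPKM in wild-type mice (SD, n = 5 each; adjusted p = 3.78e-06). Vim, which encodes vimentin, and Stat3 were called as well (log2 fold changes 1.37 and 0.54). Of 16 general astrocyte genes, 1 was called, with a list median of 0.05. That gene, Aldh1l1, averaged 12.6 ± 1.51 FPKM in high P 5xFAD mice and 8.36 ± 0.868 FPKM in wild-type mice (SD, n = 5 each; adjusted p = 0.0342), and its call was lost in 12 of 31 other settings, among them without high P 5xFAD replicates 1 or 2 or without wild-type replicates 3, 4 or 5.

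In the lysosome and autophagy list 18 of 36 tested members were higher and none was lower, and the median log2 fold change was 0.45. The called members included 8 cathepsin genes (Ctsa, Ctsb, Ctsc, Ctsd, Ctsh, Ctsl, Ctss and Ctsz) and the glycosidase genes Hexa, Gusb and Man2b1. Some called members, among them Ctsb, Ctsd, Ctsl, Ctsz and Cd68, also belong to the plaque-associated microglia list. Cd68, a lysosomal membrane protein of phagocytes, was at 18.5, 28.8, 23.4, 37.002 and 24.4 FPKM in high P 5xFAD mice and at 6.02, 7.34, 6.66, 6.96 and 6.51 FPKM in wild-type mice (log2 fold change 1.87, SE 0.17, adjusted p = 6.07e-08). The gene of the aspartic protease cathepsin D, Ctsd, was at 189.6, 255, 205, 248 and 186 FPKM in high P 5xFAD mice and at 83.96, 81.4, 77.7, 76.3 and 66.7 FPKM in wild-type mice (log2 fold change 1.47, SE 0.12, adjusted p = 9.63e-09). Both genes were apart in every pair of mice, and so was the cathepsin gene Ctsz, at 47.4, 58.1, 48.5, 52.2 and 38.7 FPKM in high P 5xFAD mice and 17.7, 19.1, 12.2, 15.7 and 14.4 FPKM in wild-type mice (adjusted p = 1.49e-06). Tfeb, Tfe3, Ulk1, Becn1, Atg5, Atg7, Map1lc3a, Map1lc3b, Gabarap, Sqstm1 and the proton pump subunit genes Atp6v0d1 and Atp6v1a were not called, with log2 fold changes of -0.24 for Atg5 to 0.41 for Tfeb. The lysosomal genes Lamp1, Lamp2, Psap, Gaa and Mcoln1 were not called either. Leaving out each library in turn gave 18 to 19 members called.

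Most lipid carrier and transporter genes were not called. Of 20 tested, 3 were higher and none was lower, with a median log2 fold change of 0.24. Apoe, which encodes the chief lipoprotein of brain fluid and is expressed by both glial types, was at 617, 771, 537, 593 and 394 FPKM in high P 5xFAD mice and at 405, 278, 302, 184 and 177 FPKM in wild-type mice. The high P 5xFAD value of replicate 5 lay just below wild-type replicate 1, so the groups overlapped (log2 fold change 1.15, SE 0.26, adjusted p = 0.0128). Apoe was not called without high P 5xFAD replicate 2 or without wild-type replicates 4 or 5. Npc2, which binds cholesterol in the lysosome, averaged 12.9 ± 0.865 FPKM in high P 5xFAD mice and 7.47 ± 0.967 FPKM in wild-type mice (SD, n = 5 each; adjusted p = 4.72e-05). Abca1 and Abcg1, the cholesterol exporter genes, were not called (log2 fold changes 0.017 and 0.0038, adjusted p = 0.939 and 0.987). The count of 3 became 1 without high P 5xFAD replicate 2 or without wild-type replicates 4 or 5.

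Sterol synthesis genes were higher in 8 of 27 tested members, none was lower, and the list median was 0.33. Mvk, which encodes mevalonate kinase, was at 8.98, 8.12, 7.76, 8.03 and 6.16 FPKM in high P 5xFAD mice and at 5.79, 4.804, 5.07, 2.896 and 3.13 FPKM in wild-type mice (log2 fold change 0.81, SE 0.18, adjusted p = 0.00948). Mvd, a later enzyme gene of the mevalonate pathway, averaged 10.2 ± 2.64 FPKM in high P 5xFAD mice and 5.905 ± 1.78 FPKM in wild-type mice (SD, n = 5 each; adjusted p = 0.0286). Wild-type replicates 4 and 5 had the lowest values of Mvk and Mvd in their group: 0 of the 27 were called without both, 5 without replicate 4, 4 without replicate 5 and 4 without high P 5xFAD replicate 2. With striatal marker level in the model 2 were called, and with voom 14.

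Genes that process or clear the amyloid precursor protein mostly showed no call, at 1 higher and 1 lower of 21 tested, and their median was 0.08 on the log2 scale. The secretase genes Bace1, Psen2 and Adam10 had log2 fold changes of 0.081, 0.26 and -0.16 (adjusted p = 0.538, 0.12 and 0.323). Clu, which encodes the extracellular chaperone clusterin, averaged 249.8 ± 30.9 FPKM in high P 5xFAD mice and 181 ± 28.3 FPKM in wild-type mice (SD, n = 5 each; log2 fold change 0.47, adjusted p = 0.0138), and was not called without high P 5xFAD replicate 2 or wild-type replicates 4 or 5. Mme, the gene of the amyloid-degrading peptidase neprilysin, was at 0.577, 0.671, 1.83, 0.401 and 0.764 FPKM in high P 5xFAD mice and at 1.201, 5.01, 0.919, 9.96 and 7.75 FPKM in wild-type mice. Wild-type replicates 2, 4 and 5 were high and replicates 1 and 3 lay within the range of the high P mice (log2 fold change -1.68, SE 0.48, adjusted p = 0.0494). Mme is strongly expressed in the striatum, and the same wild-type replicates were high in striatal markers. Its call was lost in 23 of 31 other settings, among them the fit with striatal marker level. The part of striatal tissue in the Mme values was not tested beyond that fit.

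Antioxidant genes gave 3 higher and no lower member of 25 tested, with a median log2 fold change of 0.10. Hmox1, the inducible heme oxygenase gene, averaged 3.87 ± 0.398 FPKM in high P 5xFAD mice and 1.65 ± 0.437 FPKM in wild-type mice (SD, n = 5 each; log2 fold change 1.04, adjusted p = 0.000721). The ferritin gene Ftl1 and the peroxiredoxin gene Prdx6 had log2 fold changes of 0.54 and 0.40 (adjusted p = 0.0251 and 0.0371). The quinone reductase gene Nqo1 and the glutathione synthesis gene Gclc were not called (log2 fold changes 0.16 and -0.18, adjusted p = 0.689 and 0.242). Hmox1 alone was called without high P 5xFAD replicates 2 or 4 or without wild-type replicates 3 or 5.

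Several groups had no called member. These were the myelin (median log2 fold change 0.34), oligodendrocyte precursor (-0.12), excitatory neuron (0.15), synapse (-0.010), endothelial and mural (-0.12), hippocampal (-0.12), thalamic and hypothalamic (-0.11), heat shock (-0.074), unfolded protein response (-0.034), glucocorticoid response (-0.037), cytosolic ribosomal protein (0.07) and nuclear oxidative phosphorylation (0.05) lists. The member of each list with the smallest p is named next, with its log2 fold change and adjusted p. For myelin it was the tight junction gene Cldn11 (0.70, 0.101), for precursors the proteoglycan gene Cspg4 (0.39, 0.116) and for excitatory neurons the transcription factor gene Bcl11b (-0.84, 0.0667). For synapses it was the AMPA receptor subunit gene Gria2 (-0.42, 0.0658), for vessels the VEGF receptor gene Flt1 (-0.34, 0.107), for the hippocampus Fibcd1 (-0.29, 0.228) and for the thalamus Rgs16 (0.35, 0.323). Among the general lists it was Ndufb8 of respiratory complex I (0.39, 0.0596), the ribosomal gene Rps9 (0.41, 0.0678), Sesn2 (0.53, 0.0706), Chordc1 (-0.47, 0.0981) and the NF-kappa-B inhibitor gene Nfkbia (-0.41, 0.107).

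**Figure D3:**
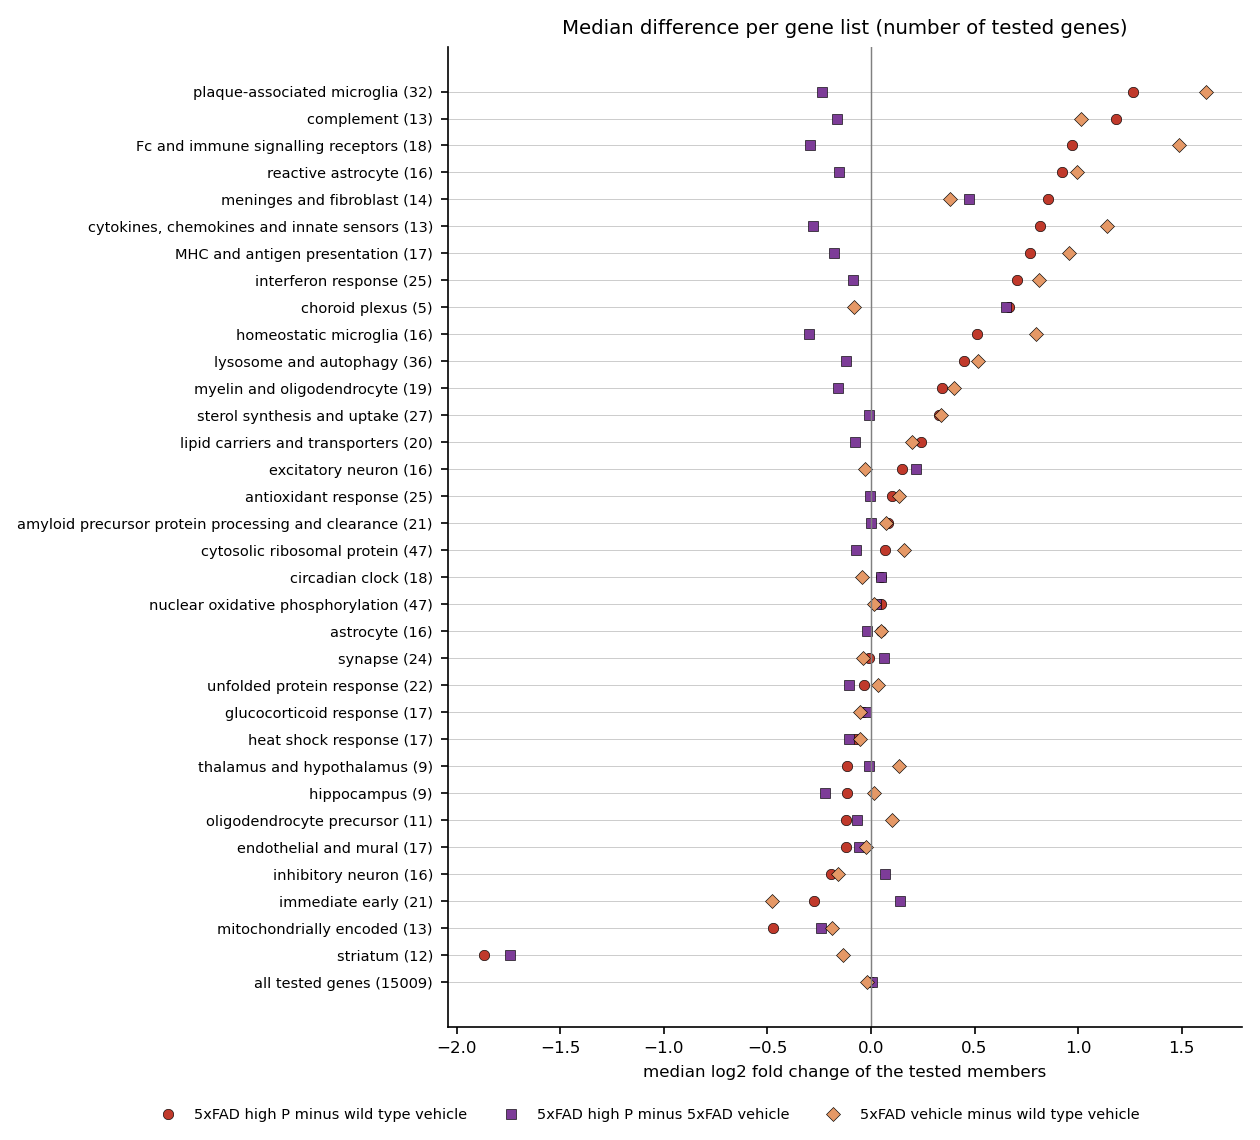
Each row is a gene list with at least 5 tested members (number in brackets), with the median log2 fold change of its members on the horizontal axis for 3 contrasts that share mice. For plaque-associated microglia the medians are 1.27 for high P 5xFAD minus wild type, -0.23 for high P 5xFAD minus vehicle 5xFAD and 1.62 for vehicle 5xFAD minus wild type, and the striatal list lies far to the left in both contrasts that hold the high P mice.

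Among genes that fell without overlap between the groups, those with the largest falls on the log2 scale were the transfer RNA gene mt-Ta and the neuronal genes Cdh9 and Lmo3. Cdh9, a cadherin gene, was at 1.56, 1.89, 2.98, 2.78 and 2.89 FPKM in high P 5xFAD mice and at 3.41, 5.78, 6.38, 7.74 and 8.62 FPKM in wild-type mice (log2 fold change -1.21, SE 0.29, adjusted p = 0.0168). Lmo3, a neuronal transcription co-factor gene, was at 13.9, 15.8, 20.2, 15.5 and 18.6 FPKM in high P 5xFAD mice and at 25.6, 25.4, 68.7, 38.5 and 39.01 FPKM in wild-type mice, of which replicate 3 was the highest (log2 fold change -1.12, adjusted p = 0.0483). Rpe65, which encodes the retinoid isomerase best known from the eye, was at 1.38, 1.51, 0.617, 1.02 and 0.72 FPKM in high P 5xFAD mice and at 3.17, 2.43, 2.04, 2.84 and 2.35 FPKM in wild-type mice. All 5 wild-type mice exceeded all 5 high P mice for Rpe65, and vehicle 5xFAD mice were low too, at 0.532, 0.749, 0.632, 1.16 and 1.31 FPKM (log2 fold change of high P 5xFAD over wild type -1.01, SE 0.24, adjusted p = 0.0175). Scg2, a secretory granule gene, averaged 43.9 ± 3.72 FPKM in high P 5xFAD mice and 73.4 ± 10.3 FPKM in wild-type mice, and the splicing kinase gene Clk1 averaged 7.66 ± 1.099 FPKM in high P 5xFAD mice and 13.1 ± 2.53 FPKM in wild-type mice (SD, n = 5 each; adjusted p = 0.0133 and 0.0161).

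The vascular gene Nostrin and the thiamine transporter gene Slc19a3 fell by smaller amounts (log2 fold changes -0.70 and -0.68, adjusted p = 0.016 and 0.03), as did the signalling regulator gene Rgs2 and the interneuron transcription factor gene Dlx5 (-0.77 and -0.79, adjusted p = 0.0423 and 0.0277). Gad2, which makes a GABA-synthesizing enzyme, was at 27.1, 29.1, 38.8, 27.2 and 37.8 FPKM in high P 5xFAD mice and at 41.4, 55.4, 61.9, 70.5 and 68.8 FPKM in wild-type mice (log2 fold change -0.88, SE 0.25, adjusted p = 0.05). It was the only called member of 16 inhibitory neuron genes, whose median was -0.19, and its call sat at the threshold and was lost in 23 of 31 other settings. Gad2, Dlx5, Rgs2 and Penk are also abundant in the striatum, whose markers, Penk itself among them, moved in the same direction across these libraries. The part of striatal tissue in these falls was not tested beyond the fit with striatal marker level. The calls of these falling genes were often lost when 1 library was left out. Rgs2 was not called without 7 of the 10 libraries in turn (high P 5xFAD replicates 1 to 4 and wild-type replicates 2, 4 and 5), and Dlx5 not without 6 of them (high P 5xFAD replicates 1, 4 and 5 and wild-type replicates 2, 4 and 5). Cdh9 was not called without high P 5xFAD replicates 1 or 2, Clk1 and Nostrin not without high P 5xFAD replicate 2, and all 3 not without wild-type replicate 4 or 5. Rpe65 was not called without high P 5xFAD replicate 3 or wild-type replicate 4, Slc19a3 without 5 of the 10 libraries in turn and Lmo3 without 8 of them. Scg2 kept its call without any 1 of the 10 libraries but lost it with striatal marker level in the model (log2 fold change -0.47, adjusted p = 0.277). Scg2, Rgs2, Dlx5, Cdh9, Clk1, Nostrin, Rpe65, Slc19a3 and Lmo3 were also not called without the 2 high P libraries high in Ttr, without the 2 wild-type libraries highest in striatal genes, or with striatal marker level. When striatal marker level was in the model, the whole comparison had 6 lower genes instead of 136, and 208 higher genes instead of 441.

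**Figure D4:**
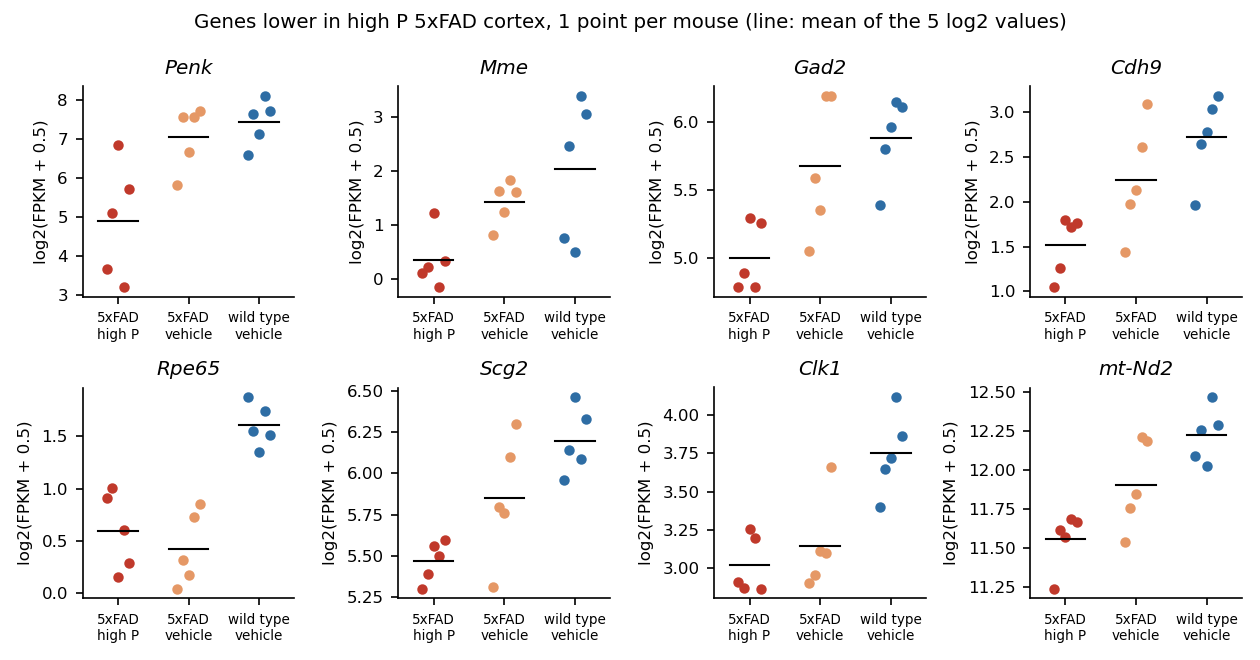
Each panel plots log2(FPKM + 0.5) of 1 gene with 1 point per mouse and a line at the mean of the 5 log2 values, for high P 5xFAD, vehicle 5xFAD and vehicle wild-type mice. Gad2, Cdh9, Rpe65, Scg2, Clk1 and mt-Nd2 show no overlap between high P 5xFAD and wild-type mice, and Penk and Mme overlap.

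Mitochondrially encoded transcripts took a smaller share of reads. The 13 protein genes of the mitochondrial genome held 4.08% ± 0.419 of reads in high P 5xFAD mice, 4.84% ± 0.888 in vehicle 5xFAD mice and 5.54% ± 0.339 in vehicle wild-type mice (SD, n = 5 each). The high P 5xFAD range was 3.41% to 4.53% and the wild-type range 5.14% to 5.95%, so these groups did not overlap (difference -1.46 percentage points, exact two-sided permutation p = 0.00794, the smallest that 5 against 5 can give). High P and vehicle 5xFAD mice differed by -0.763 points (exact permutation p = 0.143). Gene by gene, 1 of the 13 was called, and the list median was -0.47. That gene, mt-Nd2 of respiratory complex I, was at 2418, 3139, 3047, 3296 and 3248 FPKM in high P 5xFAD mice and at 4356, 4888, 4167, 5655 and 5002 FPKM in wild-type mice (log2 fold change -0.67, adjusted p = 0.0491), and it lost its call without 9 of the 10 libraries in turn. The ribosomal RNA gene mt-Rnr1 averaged 1774 ± 173 FPKM in high P 5xFAD mice and 2947 ± 64.4 FPKM in wild-type mice (SD, n = 5 each; adjusted p = 0.0439) and was not called without 9 of the 10 libraries in turn, and the transfer RNA gene mt-Ta is shorter than the 370 to 420 bp fragments selected for the libraries, so its value is uncertain (log2 fold change -1.32, adjusted p = 0.000566).

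The relation of expression to base composition was compared in the same libraries. The slope of log2 expression on gene GC content was 0.0673 ± 0.106 per 10 percentage points in high P 5xFAD mice and -0.159 ± 0.159 in wild-type mice (SD, n = 5 each; difference 0.226, exact two-sided permutation p = 0.0317), a call that was lost without 7 of the 10 libraries in turn (exact permutation p = 0.0556 to 0.0635). After the GC correction the median of the mitochondrial list was -0.22, and the medians of the plaque-associated microglia and lysosome lists were 1.30 and 0.50. The part of GC content and of the mitochondrial share in the other results was not tested beyond that correction.

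Immediate early and clock genes showed few calls. Of 21 immediate early genes, which neurons induce on activity, 1 was lower, and the list median was -0.27. Fosb, the called gene, averaged 2.57 ± 0.457 FPKM in high P 5xFAD mice and 3.797 ± 0.67 FPKM in wild-type mice (SD, n = 5 each; log2 fold change -0.48, adjusted p = 0.0472), and the call was lost in 18 of 31 other settings. Fos and Arc were not called (log2 fold changes -0.69 and -0.76, adjusted p = 0.284 and 0.355). Of 18 clock genes, the output gene Dbp was higher, at 34.7, 33.7, 34.8, 32.8 and 26.3 FPKM in high P 5xFAD mice and 20.6, 18.6, 16.8, 23.1 and 14.6 FPKM in wild-type mice with no overlap (log2 fold change 0.79, adjusted p = 0.0102). Npas2, a partner of BMAL1 in the clock, was lower, at 9.67, 10.3, 11.1, 10.5 and 10.4 FPKM in high P 5xFAD mice and 13.8, 15.9, 11.4, 15.6 and 14.3 FPKM in wild-type mice (log2 fold change -0.42, adjusted p = 0.00581). Both clock calls were lost without the 2 high P libraries high in Ttr, without the 2 wild-type libraries highest in striatal genes and with striatal marker level in the model, where the adjusted p was 0.173 for Dbp and 0.0885 for Npas2. The sources used here do not give the hour of dissection.

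Markers of tissue next to the cortex differed between these libraries. The 12 striatal markers summed to 94.0, 171, 529, 73.9 and 209.8 FPKM in the 5 high P 5xFAD mice and to 287, 785, 333, 1246 and 866 FPKM in the 5 wild-type mice. Of the high P mice, replicate 3 lay within the wild-type range and the other 4 lay below it. Of the 12 genes, 1 was called, with a list median of -1.87. Penk, the enkephalin precursor gene, was at 12.1, 34.1, 116, 8.65 and 52.2 FPKM in high P 5xFAD mice and at 96.97, 199, 139, 279 and 213 FPKM in wild-type mice (log2 fold change -2.54, SE 0.71, adjusted p = 0.045), a call lost without 7 of the 10 libraries in turn, and the dopamine receptor gene Drd2 had a log2 fold change of -2.78 that did not pass (adjusted p = 0.0935). No striatal marker was at 0 in both groups.

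Markers of the meninges and fibroblasts went the other way. Their 16 members summed to 386, 369.8, 285, 762 and 402 FPKM in high P 5xFAD mice and to 195, 155, 327, 119.8 and 123 FPKM in wild-type mice, so wild-type replicate 3 lay within the high P range. Of 14 tested members, 7 were higher and none was lower, with a median log2 fold change of 0.85. Aebp1, an extracellular matrix gene, was at 6.42, 7.31, 5.102, 10.6 and 6.69 FPKM in high P 5xFAD mice and at 2.396, 2.096, 4.62, 1.12 and 1.18 FPKM in wild-type mice (log2 fold change 1.57, adjusted p = 0.000357). Ptgds, the prostaglandin D synthase gene, was at 309.6, 307, 237, 649 and 334 FPKM in high P 5xFAD mice, highest in replicate 4, and at 158, 120.2, 274, 97.1 and 102 FPKM in wild-type mice (log2 fold change 1.31, adjusted p = 0.00291). The collagen-binding gene Fmod had a log2 fold change of 1.55 (adjusted p = 0.0329) and lost its call in 13 of 31 other settings. The count of 7 became 4 without high P 5xFAD replicate 4, wild-type replicate 4 or wild-type replicate 5, and 2 with striatal marker level in the model.

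Choroid plexus RNA was high in a pair of high P libraries. Ttr, the transthyretin gene of that tissue, was at 788, 2.87, 2.94, 484 and 0.809 FPKM in high P 5xFAD mice and at 58.2, 9.75, 8.56, 0.485 and 1.59 FPKM in wild-type mice, so replicates 1 and 4 stood apart (adjusted p = 0.526). None of the 5 tested choroid plexus members was called. Enpp2, shared with the myelin list, averaged 75.6 ± 34.5 FPKM in high P 5xFAD mice and 44.9 ± 11.3 FPKM in wild-type mice (SD, n = 5 each; adjusted p = 0.224). Of the blood markers, 4 of 7 red blood cell and 3 of 20 leukocyte genes were tested, and none of these was called. Hba-a1, a haemoglobin gene, averaged 9.44 ± 3.37 FPKM in high P 5xFAD mice and 3.57 ± 2.44 FPKM in wild-type mice (SD, n = 5 each; adjusted p = 0.167). The 20 leukocyte markers summed to 3.03 to 6.27 FPKM in high P 5xFAD mice and 2.36 to 15.5 FPKM in wild-type mice, with the neutrophil gene Ly6g at 0 in both groups. Cd4, which had the smallest p among the 3 tested leukocyte markers, was not called (log2 fold change -1.51, adjusted p = 0.213). It was highest in high P replicate 3 (4.14 FPKM) and in wild-type replicates 2, 4 and 5 (5.19, 12.8 and 7.98 FPKM). These libraries were also the highest of their groups in striatal markers. Whether Cd4 reflects leukocytes was not tested.

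**Figure D5:**
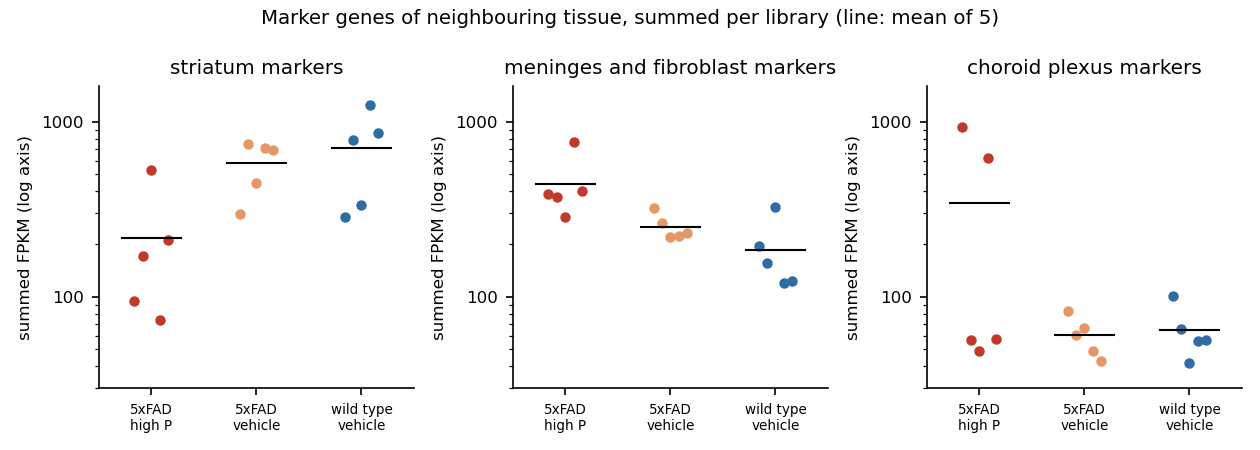
The summed FPKM of 12 striatal, 16 meningeal and fibroblast, and 13 choroid plexus markers is plotted on a log axis with 1 point per mouse and a line at the mean, for high P 5xFAD, vehicle 5xFAD and vehicle wild-type mice. Striatal sums are lowest in 4 high P mice, meningeal sums are higher in high P than in most wild-type mice, and choroid plexus sums are 939 and 623 FPKM in high P replicates 1 and 4 and lower in all other mice.

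Counts of plaque-associated microglia and lysosome members moved little when these libraries were treated in other ways, all chosen after the data had been seen, and the counts of several other lists fell. The plaque-associated microglia and lysosome lists share called members, among them Cd68, Ctsb, Ctsd, Ctsl and Ctsz, so their counts are not independent. Without high P 5xFAD replicates 1 and 4, which were high in Ttr, the comparison gave 217 higher and 11 lower genes, of which 24 were plaque-associated microglia, 18 lysosome and autophagy and 8 reactive astrocyte members. Without wild-type replicates 4 and 5, highest in striatal genes, it gave 176 higher and 9 lower genes, of which 23, 17 and 8 were members of those lists. With striatal marker level in the model it gave 208 higher and 6 lower genes, of which 24, 19 and 8 were members of those lists. Wild-type replicates 4 and 5 were also the females of their group and had its lowest GC slopes (-0.293 and -0.312). Which of these traits went with the lower counts was not tested. In these 3 fits, in the same order, 7, 7 and 7 antigen presentation members were called, against 12 in all libraries. Interferon response members numbered 8, 9 and 9, against 14, and members of the cytokine, chemokine and innate sensor list 7, 6 and 5, against 8. Fc and immune signalling members numbered 14, 11 and 14, against 15, and complement members 6, 6 and 6, against 7. Of the homeostatic microglia list 5, 5 and 6 were called, against 7, and of the sterol list 5, 0 and 2, against 8. The medians of the plaque-associated microglia list were 1.29, 1.20 and 1.26 in these fits. Those of antigen presentation were 0.70, 0.81 and 0.72, against 0.77, and those of Fc and immune signalling 0.98, 0.88 and 0.95, against 0.97. A lower count is thus not by itself a lower fold change. Over 31 settings the median was 0.56 to 1.03 for interferon response and 0.59 to 1.48 for complement. It was 0.49 to 1.32 for cytokines and sensors, 0.38 to 0.61 for homeostatic microglia and 0.29 to 0.40 for sterol genes. The part of neighbouring tissue in the results for the other lists was not tested further.

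Set against vehicle 5xFAD mice, the high P 5xFAD mice showed almost no difference that passed correction among the tested genes. In the same fit 1 gene passed, which was higher (0.00666% of tested genes), and none was lower, at a median SE of 0.14 for a log2 fold change. The tested genes had been chosen by their level in the high P 5xFAD and wild-type libraries only. A gene expressed in vehicle 5xFAD mice but low in those libraries was therefore not tested in this fit, and its fall under P could not be seen. An unadjusted p under 0.05 was reached by 917 genes (6.11% of those tested), 395 higher and 522 lower. The gene that passed, Mir124a-3, rests on a few reads: 3, 4, 6, 5 and 2 in the high P 5xFAD mice, none in any vehicle 5xFAD mouse, and 1, 0, 0, 0 and 0 in the wild-type mice. It was at 2.74, 3.43, 5.26, 4.26 and 1.71 FPKM in high P 5xFAD mice, and 3 reads, the upper limit that a count of 0 allows, come to as much as 2.74 FPKM. This 68 bp microRNA gene is far shorter than the selected fragments, so its level is uncertain, and no fold is given. With no filter on low values, with voom, with striatal marker level in the model or without the 2 high P libraries high in Ttr, no gene passed.

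Vehicle 5xFAD mice set against the same wild-type mice gave 426 higher genes (2.84%) and 43 lower genes (0.286%). The contrasts share mice, so they are not independent of each other and their values are only set side by side. For plaque-associated microglia, the median log2 fold change was 1.27 for high P 5xFAD over wild type, -0.23 for high P 5xFAD over vehicle 5xFAD and 1.62 for vehicle 5xFAD over wild type. For Fc and immune signalling receptors these medians were 0.97, -0.30 and 1.49, for complement 1.18, -0.17 and 1.01, and for the lysosome and autophagy list 0.45, -0.12 and 0.52. The reactive astrocyte medians were 0.92, -0.15 and 0.99, the interferon medians 0.71, -0.085 and 0.81, and the antigen presentation medians 0.77, -0.18 and 0.95. Sterol synthesis genes had medians of 0.33, -0.0081 and 0.34 in the same order.

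Against vehicle 5xFAD mice, most immune members lay slightly below 0 without passing correction. The log2 fold change of high P 5xFAD over vehicle 5xFAD was negative for 31 of 32 plaque-associated microglia genes, 15 of 16 homeostatic microglia genes, 18 of 18 Fc and immune signalling genes and 26 of 36 lysosome and autophagy genes, and for 49.2% of all tested genes. An unadjusted p under 0.05 with a negative sign was reached by 6, 6, 8 and 7 of them, and by 522 of all 15009 tested genes. It was reached by 4 of 13 cytokine, chemokine and innate sensor, 1 of 13 complement and 2 of 16 reactive astrocyte genes. No interferon response (25) or antigen presentation (17) gene reached it, and 1 antigen presentation gene had a positive sign at that p. In the order named, 11, 10, 12, 20 and 13 members of these further lists were negative. No member of any list here had an adjusted p under 0.05. Genes expressed in the same cells move together, so these are not independent counts. Cst7 was at 67.4, 46.7, 78.2, 55.3 and 36.3 FPKM in vehicle 5xFAD mice, a range that holds 3 of the high P values given above with the other 2 below it, and the log2 difference of high P over vehicle 5xFAD was -0.32 (95% interval -0.84 to 0.21, adjusted p = 0.779). Gfap was at 341, 288, 421, 469 and 253 FPKM in vehicle 5xFAD mice (difference -0.38, 95% interval -0.81 to 0.054, adjusted p = 0.766). Tyrobp was at 47.2, 32.3, 60.95, 31.9 and 33.6 FPKM in vehicle 5xFAD mice (difference -0.15, 95% interval -0.58 to 0.29, adjusted p = 0.863). C4b differed by -0.29 (95% interval -0.74 to 0.15), Ctsd by -0.30 (95% interval -0.54 to -0.063) and Ifit3 by 0.23 (95% interval -0.27 to 0.73) on the log2 scale, none with an adjusted p under 0.05.

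Among genes called against wild type, the 5 with the smallest p on the lower side against vehicle 5xFAD mice were Fcgr3, Vav1, Nckap1l, Lcp1 and Tlr2, all genes of immune cells and chosen here by that p. Fcgr3, whose high P and wild-type values are given above, was at 15.3, 12.997, 17.9, 20.97 and 15.6 FPKM in vehicle 5xFAD mice. The 3 groups did not overlap, with the high P mice between the other two (log2 fold change over vehicle 5xFAD -0.53, SE 0.11, unadjusted p = 3.95e-05, limma adjusted p = 0.297). Vav1, a signalling exchange factor gene of blood cells, was at 1.67, 1.77, 1.94, 1.73 and 1.26 FPKM in high P 5xFAD mice, 2.94, 2.63, 3.13, 2.95 and 2.78 FPKM in vehicle 5xFAD mice and 0.846, 1.06, 1.02, 0.433 and 0.641 FPKM in wild-type mice. It was ordered in the same way (log2 fold change over vehicle 5xFAD -0.65, limma adjusted p = 0.658). The actin regulator genes Nckap1l and Lcp1 and the receptor gene Tlr2 had log2 fold changes over vehicle 5xFAD of -0.45, -0.44 and -0.46 (limma adjusted p = 0.766, 0.766 and 0.766).

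On the higher side, besides Mir124a-3, the genes with the smallest p were Rras2, Ndufaf8, Efna2 and Cln6. Rras2, a small GTPase gene, was at 4.74, 4.295, 4.05, 5.51 and 4.23 FPKM in high P 5xFAD mice, 3.85, 3.005, 3.68, 2.95 and 2.67 FPKM in vehicle 5xFAD mice and 3.04, 2.496, 3.25, 2.05 and 2.44 FPKM in wild-type mice, so the high P mice stood above both other groups (log2 fold change over wild type 0.69, adjusted p = 0.00106; over vehicle 5xFAD 0.44, limma adjusted p = 0.766). Cln6, a membrane protein gene mutated in a neuronal storage disease, had log2 fold changes of 0.69 over wild type and 0.46 over vehicle 5xFAD (limma adjusted p = 0.00594 and 0.766). Ndufaf8, an assembly factor gene of respiratory complex I, and the ephrin gene Efna2 had log2 fold changes over wild type of 0.61 and 0.57 (limma adjusted p = 0.0432 and 0.0449), and their calls were lost in 14 and 15 of 31 other settings. The tissue markers also differed between the 5xFAD groups: 14 of 14 meningeal members were positive and 12 of 12 striatal members negative for high P over vehicle 5xFAD, with medians of 0.47 and -1.74. The meningeal sums were 285 to 762 FPKM in high P and 218 to 321 FPKM in vehicle 5xFAD mice, and the striatal sums 73.9 to 529 FPKM in high P and 298 to 748 FPKM in vehicle 5xFAD mice. Their part in the differences between the 5xFAD groups was not tested beyond the fit with striatal marker level, in which the plaque-associated microglia median was -0.22.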

How the data were processed

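Per the labels' protocols, mRNA was captured on poly-T beads, primed with random hexamers and made into stranded libraries with fragments of 370 to 420 bp. The submitters' processing notes name HISAT2 and the build mm10; the sources used here do not give the counting tool. The deposited table holds FPKM computed by the authors, with a deposited gene length in bp, for 54532 genes. FPKM times length gave whole multiples for 100% of nonzero values (tolerance 0.01, largest distance 1.2e-05), so reads were recovered (15518358 to 17698222 per library; intervals and floors cover counting error only). Every pair of libraries in a group differed beyond counting noise (chi-square divided by number of genes at least 7.70). GC content came from GENCODE transcripts (98.3% of matched genes had the same coordinates).

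A gene was tested where 5 or more of the 10 libraries held at least 0.5 FPKM, and the pseudocount was 0.5; 397 passed in exactly 5 libraries and 463 missed with exactly 4. Such a scale understates fold changes of low genes. A mean per group was fitted to 25 libraries with limma 3.58.1 in R 4.3.3 (data.table package, version 1.17.8; trend, 20 residual degrees of freedom), two-sided, with Benjamini-Hochberg adjustment. The procedure was tested on simulated data. The mice are separate animals, per the series design. Same-numbered libraries of different groups deviated together unevenly (correlations -0.25 to 0.34). Replicate 1 correlated best with its own number in each pair of the groups compared (0.21, 0.30 and 0.34). In each group replicates 1 to 3 were male and replicates 4 and 5 female. Numbers were not used as pairs in the main fit. Single values were compared with exact permutation tests.

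The genes and 35 gene lists were chosen with earlier results of these data known. Named genes were Thy1 and App, the 12 largest rises and falls called without overlap at a mean of 1 FPKM or more (unnamed models and pseudogenes left out), the top 3 called members of each list or its smallest p, and the 5 called genes of each sign with the smallest p against vehicle 5xFAD; genes named beside them in a list were chosen after their values were seen. A few genes that belong to these lists and counts are not reported here by name. Of the 12 largest rises and falls, Mir124a-3 and mt-Ta are short genes. Sequences are RefSeq promoters (GRCm38.p6). Alternatives were other pseudocounts, filters, scalings, GC correction, weights, a sex term, a replicate block and leaving out libraries.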

Additional observations from a re-analysis of the deposited data

Results flagged for a closer look

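Among the named genes, 13 of 180 sets of 5 libraries had a sample far from the other 4 by Dixon's test, which chance alone does in about 1 in 20 sets. High P 5xFAD replicate 4 was far above the other 4 for the class II genes Cd74 (47.3 FPKM, others 9.92 to 20.6), H2-Aa (10.4, others 1.83 to 3.76) and H2-Ab1 (8.24, others 1.45 to 2.63). It was also high for the interferon gene Ifit3 (15.999 FPKM, others 10.5 to 11.97) and the meningeal gene Ptgds (649 FPKM, others 237 to 334), and its meningeal and fibroblast markers summed to 762 FPKM, the highest of the group. Whether meningeal tissue had a part in the class II values was not tested. High P 5xFAD replicate 3 was high for Bcl11b (17.6 FPKM, others 9.72 to 11.4) and Mme (1.83 FPKM, others 0.401 to 0.764), and its striatal markers summed to 529 FPKM, the highest of the group. In the same group replicate 2 was high for C4b (80.8 FPKM, others 46.8 to 53.7) and the myelin gene Cldn11 (145 FPKM, others 82.0 to 89.4). There too, replicate 5 was low for Dbp (26.3 FPKM, others 32.8 to 34.8), and replicate 1 was low for mt-Nd2 (2418 FPKM, others 3047 to 3296). Wild-type replicate 2 was high for Cd180 (1.07 FPKM, others 0.511 to 0.63), and wild-type replicate 1 held the single read of Mir124a-3 (0.883 FPKM, others 0).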

How the results depend on the processing

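Of 72 called genes picked by the naming rules, 40 kept their call in all 31 other settings. In all fits that left out 1 of the 10 libraries, 49 kept it. Over these genes and settings 1917 of 2232 calls were kept, 315 were lost and none changed sign. Called genes named beside them in a list, such as Trem2 and Cx3cr1, were not part of these counts. High P 5xFAD against wild type gave 577 genes, and 290 to 1408 when each library was left out in turn. With array weights it gave 2424 genes, 1217 higher and 1207 lower. Fitted to the libraries of the 2 compared groups alone it gave 706 genes, 489 higher and 217 lower, and 447 of these were among the 577. It gave 228 without the 2 high P libraries high in Ttr and 185 without the 2 wild-type libraries highest in striatal genes. With striatal marker level in the model it gave 214. Against vehicle 5xFAD mice, 1 gene became 0 with no filter, with the replicate block and GC correction, with voom, with striatal marker level and without the libraries high in Ttr, and 0 to 2 when each library was left out. Vehicle 5xFAD against wild type gave 469 genes, 810 with array weights and 299 without the 2 wild-type libraries. The GC slope difference of 0.226 ranged over 0.188 to 0.286 when each library was left out, and lost its call in 7 of these 10 fits (exact permutation p = 0.0556 to 0.0635). Replicate numbers paired the libraries only in part. In 6 of 15 comparisons of a library with those of another group, it correlated best with its own number. The replicate block gave 474 genes (397 higher and 77 lower, against 441 and 136 in the main fit). edgeR and DESeq2 had been planned for counts and were not run because the values are FPKM; voom on recovered reads stood in their place and gave 596 genes. Other causes were not tested. Depth limits genes of a few reads, such as Mir124a-3.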
